A study of Mus musculus with 6 samples.

Results

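The 10 alpha-defensin genes Defa3, Defa5, Defa17, Defa21, Defa22, Defa24, Defa29, Defa30, Gm14851 and AY761184 were examined in single-cell RNA sequencing data of mouse ileal crypt epithelium. They were chosen by symbol among the 32285 genes of the deposited matrices, which held 28 alpha-defensin genes in all. Crypt cells were sorted for the epithelial surface protein EpCAM and captured in droplets on the MobiNova-100 platform. The 6 libraries fell into 2 groups of 3. Fpr2f/f mice, labelled WT, carried recombination sites in the formyl peptide receptor gene Fpr2 and no Cre. Fpr2VKO mice carried the same floxed Fpr2 and a Cre recombinase under the Villin promoter, which acts in the whole intestinal epithelium and not in Paneth cells alone. The floxed line was on the C57BL/6J background, and the background of the Cre line is not given in the sources used here. Mice were young adults matched for age and sex, kept free of specific pathogens, and received no treatment.

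Alpha-defensins are small antimicrobial peptides with disulfide bonds that Paneth cells, at the base of small intestinal crypts, store in granules and release into the crypt lumen. In the mouse those of Paneth cells are called cryptdins, are made as longer precursors, and are cut to their active form by the protease Mmp7. A related group, the cryptdin-related sequence peptides, shares the start of the precursor but has a different mature end with repeated cysteine motifs. The genes lie side by side as near copies of each other, and closely related copies differ between mouse strains.

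The 10 genes lay between positions 21025545 and 21735471 of chromosome 8 (mm10), each with 2 exons and 1 annotated transcript. Coding lengths divided them into 7 cryptdins of 279 bases (Defa3, Defa5, Defa17, Defa21, Defa22, Defa24 and Defa30) and 3 cryptdin-related genes of 348 bases (AY761184, Gm14851 and Defa29). The last 105 coding bases, all in exon 2, encode most of the mature peptide and are shown for that reason. Cryptdins also differ outside this stretch, as Defa24 and Defa30 do. Capitals mark bases that differ from Defa24 after alignment, and the stretches lie at chr8:21735270-21735374 (Defa24), chr8:21135396-21135500 (Defa30), chr8:21656534-21656638 (Defa17), chr8:21298174-21298278 (Defa5), chr8:21163048-21163152 (Defa22) and chr8:21026316-21026420 (Defa21), all on the plus strand.
Defa24: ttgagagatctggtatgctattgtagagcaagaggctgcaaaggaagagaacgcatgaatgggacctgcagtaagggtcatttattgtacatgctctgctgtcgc
Defa30: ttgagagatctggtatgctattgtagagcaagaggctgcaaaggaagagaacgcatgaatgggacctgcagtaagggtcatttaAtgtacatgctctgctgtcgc
Defa17: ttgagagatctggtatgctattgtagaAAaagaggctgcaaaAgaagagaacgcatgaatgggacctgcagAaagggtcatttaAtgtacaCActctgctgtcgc
Defa5: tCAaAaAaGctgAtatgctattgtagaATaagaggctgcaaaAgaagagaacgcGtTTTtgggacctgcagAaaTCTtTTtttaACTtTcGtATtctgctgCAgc
Defa22: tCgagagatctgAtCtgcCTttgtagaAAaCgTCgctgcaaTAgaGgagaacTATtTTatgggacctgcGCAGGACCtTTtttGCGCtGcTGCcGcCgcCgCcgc
Defa21: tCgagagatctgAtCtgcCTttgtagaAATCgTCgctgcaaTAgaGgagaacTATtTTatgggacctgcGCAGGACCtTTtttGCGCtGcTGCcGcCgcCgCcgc

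Defa30 differed from Defa24 at 1 of these bases, Defa17 at 7, Defa5 at 28, Defa22 at 40 and Defa21 at 41. Over the whole coding sequence Defa21 and Defa22 were 99.3% identical to each other, and Defa24 and Defa30 were 98.6% identical. Defa3 and Defa17 had the same coding sequence (100%), so the Defa3 stretch, at chr8:21288176-21288280, equals the one shown for Defa17. The 3 cryptdin-related genes have the mature ends below, in which capitals mark differences from AY761184. They lie on the minus strand, at chr8:21702631-21702735 (AY761184), chr8:21326002-21326106 (Defa29) and chr8:21095077-21095181 (Gm14851).
AY761184: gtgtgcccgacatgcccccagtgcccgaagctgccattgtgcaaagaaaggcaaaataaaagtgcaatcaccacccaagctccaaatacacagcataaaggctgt
Defa29: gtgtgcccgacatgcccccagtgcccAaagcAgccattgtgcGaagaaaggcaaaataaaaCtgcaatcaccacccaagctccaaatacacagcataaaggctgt
Gm14851: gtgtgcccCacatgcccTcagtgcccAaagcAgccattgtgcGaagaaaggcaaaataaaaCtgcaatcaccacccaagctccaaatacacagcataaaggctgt

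Defa29 differed from AY761184 at 4 of these bases and Gm14851 at 6. Such near identity bears on the counts, since a read that fits several genes may be split or dropped, and how the authors' counting treated it is not given in the sources used here. Of all 90-base windows of the annotated transcript, 100% were unique to 1 alpha-defensin gene for Defa24 and AY761184, 95.5% for Defa30, 86.6% for Defa29, 78.6% for Gm14851, 54.8% for Defa22 and 54.7% for Defa21. Only 12.8% were unique for Defa3, 9.09% for Defa17 and 8.01% for Defa5. Values of Defa3, Defa17 and Defa5 are therefore uncertain as values of single genes. Defa3 and Defa17 shared windows with each other and with Defa30. Defa5 shared them with the alpha-defensin genes Defa34, Defa35, Defa36, Defa37 and Gm15293, which are not among the 10.

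Libraries held 90142126 to 189516114 UMIs (unique molecular identifiers, each marking 1 captured transcript molecule), and 7.25% to 13.1% of these were in barcodes of under 100 UMIs, which served as a measure of free RNA. After removal of barcodes with over 20% mitochondrial UMIs, which took away 65.7% to 84.5% of those above the size limits, 16217 cells counted as epithelial and 270 immune-like cells remained. The 16217 include an unnamed cluster of 34 cells led by the immunoglobulin genes Ighm, Jchain and Igha, which stayed among other epithelial cells. Fpr2 had 0 UMIs in all 6 libraries, which at 3 counts allows up to 0.0158 to 0.0333 CPM (UMIs scaled to a common library total), so the deletion could not be checked in these data. Pairs of libraries shared 0 to 23 cell barcodes, where their sizes alone would give 1.58 to 5.34, and Fpr2f/f replicate 2 with Fpr2VKO replicate 1 shared the most (23 against 4.07). Shared barcodes were 0.649% to 2.46% of the cells of a library and 2 to 6 of its Paneth-like cells, and without them the alpha-defensin sum of Paneth-like cells was 60.6% to 68.5% of UMIs, against 60.5% to 68.5% with them. Paneth-like cells were clustered and named with all 28 alpha-defensin genes left out, and numbered 71, 224 and 141 in Fpr2f/f replicates 1 to 3 and 95, 196 and 162 in Fpr2VKO replicates 1 to 3, 889 in all. They formed a deep cluster of 585 cells (median 52050 UMIs and 1.90% mitochondrial UMIs) and a shallow cluster of 304 cells (median 3620.5 UMIs and 14.3%).

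The clusters were named Paneth-like from 9 Paneth markers that are no alpha-defensins, so the levels of these markers describe the cells and are no separate check of the name. In 6 of 6 libraries 8 of the 9 were higher in Paneth-like than in other epithelial cells. Lysozyme (Lyz1) had 43262 to 66004 CPM in Paneth-like cells against 285 to 625 CPM in other epithelial cells. The exception was the mucosal pentraxin Mptx1, near 0 in both (0.222 to 4.01 against 0.947 to 4.31 CPM). The summed markers of stem, TA, enterocyte, enteroendocrine and tuft cells were lower in Paneth-like than in other epithelial cells in 6 of 6 libraries. Those of goblet cells, which secrete mucus, were higher in 6 of 6 libraries, with 15124 to 21011 CPM in Paneth-like and 10224 to 18670 CPM in other epithelial cells, although goblet-like cells themselves had 115116 to 154585 CPM. The goblet marker Spink4 alone averaged 15563 CPM in Paneth-like cells, against 620 CPM for Muc2, so the goblet sum was mostly Spink4 there. Immune markers summed to 3.62 to 21.5 CPM in Paneth-like cells, against 37777 to 64096 CPM in immune-like cells.

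Alpha-defensins made up most of the RNA of Paneth-like cells. The 10 genes together took 60.5%, 68.1% and 63.3% of the UMIs of Paneth-like cells in Fpr2f/f replicates 1 to 3, and 60.9%, 68.5% and 62.7% in Fpr2VKO replicates 1 to 3. The groups overlapped fully, with means of 64.0% ± 3.87 and 64.0% ± 4.003 (SD, n = 3 each), and the sum rested on 21648862 UMIs. Each library lay closer to the same-numbered library of the other group than to the others of its own group. The other 18 alpha-defensin genes added 0.940% to 1.27%. In the deep cluster alone the 10 genes took 61.6% to 69.2%, and in the shallow cluster 41.6% to 59.0%. Per cell, the median share was 66.5% in the deep cluster (5th to 95th percentile 18.0% to 76.9%), and 471 of its 585 cells had more than 50% of their UMIs from these 10 genes. Since these genes fill most of a library's Paneth-like total, a change in 1 abundant gene moves the CPM of all others.

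**Figure D1:**
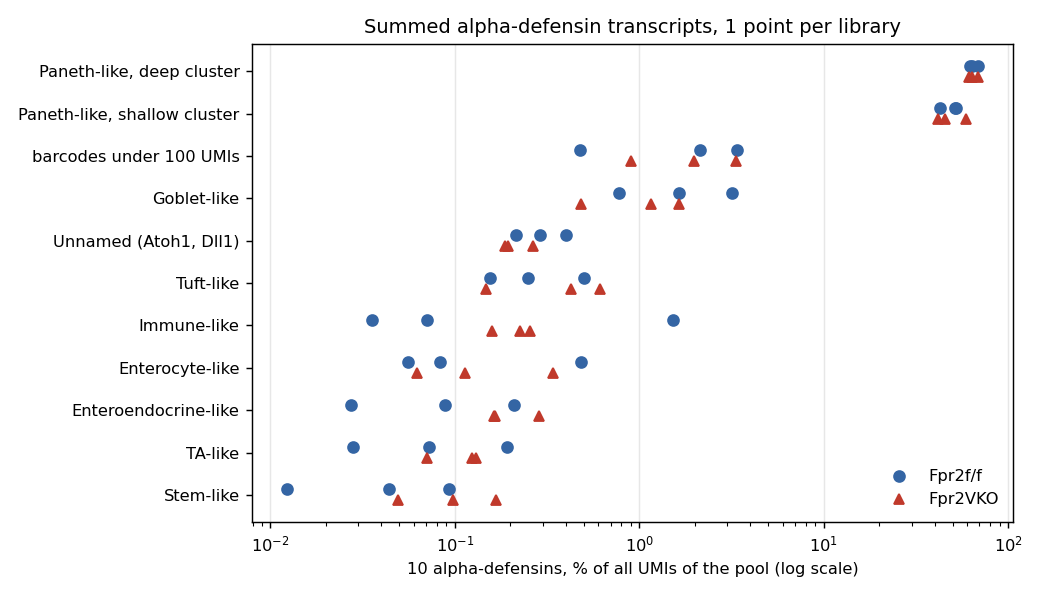
Share of all UMIs of a pool that came from the 10 alpha-defensin genes (x axis, %, log scale) for each cell class and for barcodes under 100 UMIs (y axis), 1 point per library, circles for Fpr2f/f and triangles for Fpr2VKO. Both Paneth-like clusters lie between 41.6% and 69.2%, free RNA between 0.475% and 3.40%, and stem-like cells between 0.0123% and 0.167%.

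Among the cryptdins, Defa24 was the most abundant. Its level in Paneth-like cells was 227211, 227787 and 213483 CPM in Fpr2f/f replicates 1 to 3 and 201642, 237557 and 219577 CPM in Fpr2VKO replicates 1 to 3. The 6 libraries lay close together and the groups overlapped. Defa30, its nearest relative among the 10, had 90077, 90882 and 82915 CPM in Fpr2f/f and 84270, 112748 and 81001 CPM in Fpr2VKO libraries. Fpr2VKO replicate 2 was the highest of the 6 for both genes.

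Defa17 reached 32585, 36454 and 46485 CPM in Fpr2f/f and 36410, 45465 and 41127 CPM in Fpr2VKO libraries. Defa3, which shares its coding sequence, had 4265, 4172 and 5492 CPM in Fpr2f/f and 4291, 5434 and 4936 CPM in Fpr2VKO libraries. For both, Fpr2f/f replicate 3 and Fpr2VKO replicate 2 were the highest, and the groups overlapped.

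Defa21 and Defa22 varied most between libraries among the abundant cryptdins. Defa21 was at 32769, 49096 and 60300 CPM in Fpr2f/f and 45692, 22514 and 50140 CPM in Fpr2VKO libraries. Defa22 followed it with 28022, 41693 and 64737 CPM in Fpr2f/f and 41287, 18368 and 43485 CPM in Fpr2VKO libraries. Fpr2f/f replicate 3 was the highest and Fpr2VKO replicate 2 the lowest for both, and the groups overlapped.

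Defa5 was the least abundant of the 10 and the only member whose groups did not overlap in Paneth-like cells. Its level was 3093, 4258 and 3638 CPM in Fpr2f/f libraries and 2464, 1763 and 2042 CPM in Fpr2VKO libraries. All 3 Fpr2f/f libraries stood above all 3 Fpr2VKO libraries. Such separation of 3 against 3 libraries has by itself a two-sided exact permutation p of 0.1. How many of all tested genes separated in this way was not counted, here or for groups without overlap named below.

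Among the cryptdin-related genes, AY761184 had 103129, 115506 and 78288 CPM in Fpr2f/f and 96486, 127458 and 95526 CPM in Fpr2VKO libraries. Gm14851 had 69145, 89415 and 58309 CPM in Fpr2f/f and 75760, 98724 and 70227 CPM in Fpr2VKO libraries. Both were lowest in Fpr2f/f replicate 3, highest in Fpr2VKO replicate 2, and overlapped between groups. Defa29 was lower, with 14311, 21991 and 19786 CPM in Fpr2f/f and 20379, 15234 and 18708 CPM in Fpr2VKO libraries, and its groups also overlapped.

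Divided by annotated transcript length, the order of levels in Paneth-like cells ran from Defa24 (527946 ± 30033 CPM per kb, SD over 6 libraries) through Defa30 (226923 CPM per kb), Gm14851 (219174), AY761184 (204239), Defa21 (103872), Defa17 (100136), Defa22 (94507), Defa29 (36223) and Defa3 (11622) to Defa5 (7649 CPM per kb). Defa24 exceeded Defa30 by 2.00 to 2.57 times per kb, in 6 of 6 libraries. Neighbors that did not keep this order in every library were Defa30 and Gm14851 (4 of 6 libraries), Gm14851 and AY761184 (5 of 6), Defa21 and Defa17 (4 of 6), Defa17 and Defa22 (2 of 6), and Defa3 and Defa5 (5 of 6). On plain CPM, AY761184 came directly after Defa24, ahead of Defa30 and Gm14851. Since each UMI marks 1 molecule, counts need not scale with length, and plain CPM is the measure of level here. The annotated Gm14851 transcript (351 bases) held no untranslated ends, unlike that of AY761184 (503 bases). Division by the shorter length raises Gm14851.

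Outside Paneth-like cells the alpha-defensins were at low levels in every class, and goblet-like cells held the most in 5 of 6 libraries. In Fpr2f/f replicate 2 immune-like cells held more (1.53% against 0.774%). The summed 10 genes took 0.189%, 0.428% and 0.438% of UMIs of other epithelial cells in Fpr2f/f libraries and 0.141%, 0.379% and 0.269% in Fpr2VKO libraries. Paneth-like cells thus exceeded other epithelial cells by 145 to 430 times. With Paneth-like cells taken by marker share instead of by cluster, the mean sums went from 64.0% to 60.1% in Paneth-like and from 0.307% to 0.152% in other epithelial cells, which makes this ratio larger. In goblet-like cells the sum was 1.63%, 0.774% and 3.19% in the Fpr2f/f libraries, against 0.481%, 1.64% and 1.16% in Fpr2VKO.

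Stem-like cells, a cluster led by the stem marker Olfm4 and by DNA replication genes such as Mcm6 and Pcna, held the least in 5 of 6 libraries, with 0.0123%, 0.0927% and 0.0438% in the Fpr2f/f libraries, against 0.0492%, 0.0979% and 0.167% in Fpr2VKO. Transit-amplifying-like (TA-like) cells ranged from 0.0281% to 0.191%, enterocyte-like from 0.0556% to 0.485%, enteroendocrine-like from 0.0275% to 0.285% and tuft-like cells from 0.148% to 0.610%. Immune-like cells, which should not make these peptides, ranged from 0.0357% to 0.256% in 5 libraries and reached 1.53% in Fpr2f/f replicate 2.

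Free RNA held 0.475%, 3.40% and 2.12% alpha-defensin UMIs in the Fpr2f/f libraries, against 0.898%, 3.35% and 1.97% in Fpr2VKO. Libraries of the same group lay far apart, and Paneth-like cells exceeded their own library's free RNA by 20.1 to 127 times. A UMI of any of the 10 genes was found in 97.3% of stem-like cells (median 27741 UMIs) and in 95.9% of immune-like cells (median 5783 UMIs). After each cell was thinned to 2000 UMIs, with 5 and 9 shallower cells left out, the shares pooled over libraries were 59.9% and 88.5%, with libraries from 17.5% to 82.5% and from 52.2% to 100%. A UMI in a stem-like cell was thus no more frequent than in immune-like cells on the pooled shares, and the library ranges overlapped. Goblet-like cells stood at 88.2% (181 left out, 96.6% unthinned) and Paneth-like cells at 100% (50 left out, 100% unthinned). Defa5 was found in 86.3% of thinned Paneth-like cells (92.4% unthinned), 3.45% of immune-like (6.30%) and 2.83% of goblet-like cells (5.996%).

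The make-up of the alpha-defensin UMIs, meaning each gene's share of the UMIs of the 10, set goblet-like cells apart from free RNA. In free RNA, Defa24 took 35.6% to 39.6%, AY761184 14.7% to 19.97%, Gm14851 8.22% to 14.3%, Defa30 10.8% to 15.0%, Defa17 4.58% to 7.39% and Defa21 2.74% to 7.82%. Paneth-like cells had nearly the same make-up, with Defa24 at 33.1% to 37.6%, AY761184 at 12.4% to 18.6%, Gm14851 at 9.21% to 14.4% and Defa17 at 5.35% to 7.34%. In goblet-like cells Defa24 took 53.9% to 69.1% and Defa17 10.8% to 24.5%, while Gm14851 took 0.651% to 3.66%, Defa30 2.36% to 5.10% and Defa21 0.234% to 1.92%. For these 5 genes the 6 goblet-like values did not overlap the 6 free RNA values.

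The distance in make-up from free RNA of the same library, as the share of UMIs that would have to change gene, was 3.43 to 7.21 percentage points for the deep Paneth-like cluster. It was 3.21 to 6.79 for stem-like, 1.65 to 6.86 for TA-like and 2.54 to 9.95 for enterocyte-like cells. It reached higher in some libraries for the shallow Paneth-like cluster (4.44 to 12.9), enteroendocrine-like (2.996 to 11.03), tuft-like (3.73 to 19.99) and immune-like cells (3.58 to 19.8). The highest tuft-like and immune-like values were those of Fpr2f/f replicate 1, from 57 and 25 cells. Its immune-like cells had a median of 1 alpha-defensin UMI, and few UMIs can raise this distance. For goblet-like cells the distance was 27.9 to 45.1. An unnamed cluster of 381 cells led by the secretory-lineage genes Atoh1 and Dll1 lay at 9.51 to 34.7, which overlapped several of these ranges. Fpr2VKO replicate 2 had the lowest Defa21 share of the 6 libraries in Paneth-like cells (3.29%), free RNA (2.74%), stem-like (3.01%), TA-like (2.80%) and enterocyte-like cells (1.26%), but not in goblet-like cells, where Fpr2f/f replicate 1 was lowest (0.234%). Fpr2f/f replicate 3 was highest in Paneth-like cells (9.52%) and free RNA (7.82%), but not in stem-like, TA-like, enterocyte-like or goblet-like cells.

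**Figure D2:**
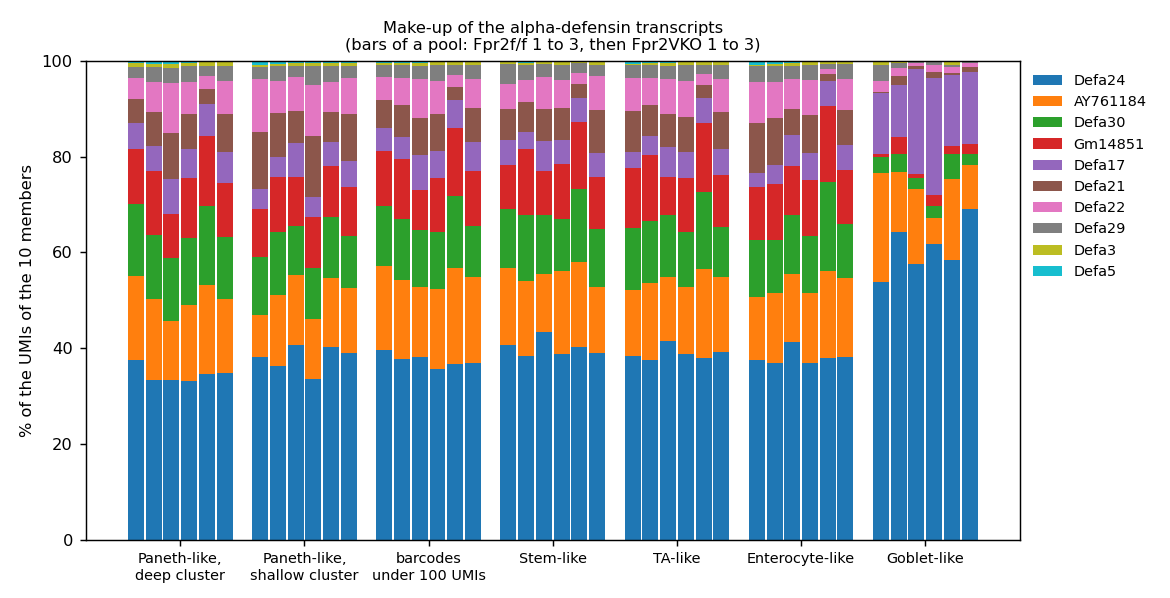
Make-up of the alpha-defensin UMIs (y axis, % of the UMIs of the 10 genes) in 7 pools (x axis), 1 stacked bar per library with Fpr2f/f replicates 1 to 3 before Fpr2VKO replicates 1 to 3. Defa24 takes 53.9% to 69.1% in goblet-like cells against 35.6% to 39.6% in barcodes under 100 UMIs, and Gm14851 takes 0.651% to 3.66% against 8.22% to 14.3%.

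Pooled over libraries, most goblet-like alpha-defensin UMIs came from few cells. Of 1451 goblet-like cells 65 had more than 5% alpha-defensin UMIs (8, 11 and 19 in the Fpr2f/f libraries, against 4, 15 and 8 in Fpr2VKO), and these held 180124 of the 248149 alpha-defensin UMIs of the class. They held fewer than the remaining goblet-like cells in Fpr2f/f replicate 2 (14505 against 19071 UMIs) and Fpr2VKO replicate 1 (3981 against 11961 UMIs). The median goblet-like cell had 0.234% alpha-defensin UMIs, against 0.132% in enterocyte-like and 0.143% in immune-like cells. The 65 cells were deeper (median 16808 against 5417.5 UMIs) and had 3.93% Paneth marker UMIs against 0.254% in the rest. Their alpha-defensins were Defa24 (56.4%), Defa17 (18.7%) and AY761184 (18.5%), with 0.686% Gm14851 and 0.432% Defa21. The other 1386 goblet-like cells had 67.7% Defa24, 12.9% Defa17, 6.49% AY761184, 3.96% Gm14851 and 1.78% Defa21, so Defa24 led in both sets and AY761184 was scarcer in the larger one. The part of doublets that the scoring missed was not tested.

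Pooled over libraries, the deep Paneth-like cluster also held cells rich in Defa24, Defa17 and AY761184 and poor in Gm14851 and Defa21. In its 57 cells with less than 30% alpha-defensin UMIs (median 6240 UMIs), Defa24 took 48.9% of these UMIs, AY761184 21.2%, Defa17 18.8%, Defa30 4.90%, Gm14851 1.72% and Defa21 1.69%. In its 419 cells with more than 60% (median 61671 UMIs) the same genes took 33.4%, 16.3%, 5.91%, 14.3%, 13.2% and 6.80%. The 109 cells in between had intermediate pooled shares of Defa17 (8.73%), Gm14851 (6.92%) and Defa21 (4.96%). Single libraries departed from this, since in Fpr2f/f replicate 2 the cells in between had less Gm14851 (1.72% against 4.96%) and Defa21 (3.03% against 4.77%) than the low cells, and in Fpr2VKO replicate 1 they had slightly more Defa21 than the high cells (7.46% against 7.38%). AY761184 was lower in the low than in the high cells in Fpr2VKO replicate 2 (14.8% against 18.5%). In Fpr2f/f replicate 2 it was nearly equal (17.4% against 16.7%). Goblet markers took 7.78%, 3.14% and 1.44% of UMIs in the low, middle and high cells, and 9.73%, 6.37% and 4.70% of the UMIs that came from none of the 10 genes. The part of Spink4 in these goblet shares was not tested. Paneth markers took 8.86%, 27.5% and 34.4% of that remainder, so in the low cells pooled over libraries they were slightly below the goblet markers. In Fpr2f/f replicate 1 and Fpr2VKO replicate 1 they were above them (9.10% against 8.43% and 9.27% against 7.52%).

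The split was then described with a measure free of alpha-defensins, in the 521 deep-cluster cells with at least 10000 UMIs. Within each library cells were divided into tertiles by their share of goblet marker UMIs, with alpha-defensins left out of the total. In Paneth-like cells this marker sum was mostly Spink4 (mean 15563 CPM, against 620 CPM for Muc2), so the tertiles need not rank goblet character. From the lowest to the highest tertile, the mean share of Defa17 went from 5.31% to 7.72%, AY761184 from 13.8% to 19.0% and Defa3 from 0.658% to 0.852%, each higher in the highest tertile in 6 of 6 libraries. Defa21 went from 8.60% to 4.23%, Defa22 from 8.50% to 3.53% and Defa5 from 0.515% to 0.359%, each lower in 6 of 6 libraries. Gm14851, which was scarce in the cells with few alpha-defensin UMIs, did not go with them, at 11.1% and 12.4% and higher in the highest tertile in 5 of 6 libraries. Depth did not follow, with mean library medians of 55663 and 54940 UMIs in the lowest and highest tertiles.

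By tertiles of Paneth marker share, Defa17 went from 7.83% to 5.72% and Defa3 from 0.884% to 0.689%, each lower in 6 of 6 libraries, and Defa29 from 2.38% to 3.01%, higher in 6 of 6. The total alpha-defensin share went from 57.9% to 67.7% of UMIs, and depth was also higher (42081 against 66890 UMIs), so depth and marker share cannot be told apart here. Defa17, AY761184 and Defa3 thus stood together against Defa21, Defa22 and Defa5 along the goblet marker share. Defa3 and Defa17 have the same coding sequence, and Defa21 and Defa22 nearly so, which means that their values are not separate. All are shares of 1 total, so lower shares of Defa21 and Defa22 raise those of the others.

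Across the same cells, levels per 10000 UMIs outside the 10 genes were correlated within each library, on a log scale, as a description, and the genes share a cell's depth. Defa21 and Defa22 had the highest Pearson r (median of 6 libraries 0.89, 0.81 to 0.93). Defa30 and Gm14851 had 0.87 (0.78 to 0.89), although only Defa30 is a cryptdin and Gm14851 is cryptdin-related. Defa5 had 0.87 with Defa21 and 0.82 with Defa22. Defa24 had 0.80 with AY761184 and 0.79 with Defa17. The lowest values were 0.08 for Defa17 and Defa22 (-0.21 to 0.59), 0.19 for Defa17 and Defa21, and 0.20 for AY761184 and Defa22. Sequence likeness did not follow this order throughout, since Defa24 and Defa30, 98.6% identical in coding sequence, had 0.77. Shared reads can raise the value for Defa21 and Defa22.

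**Figure D3:**
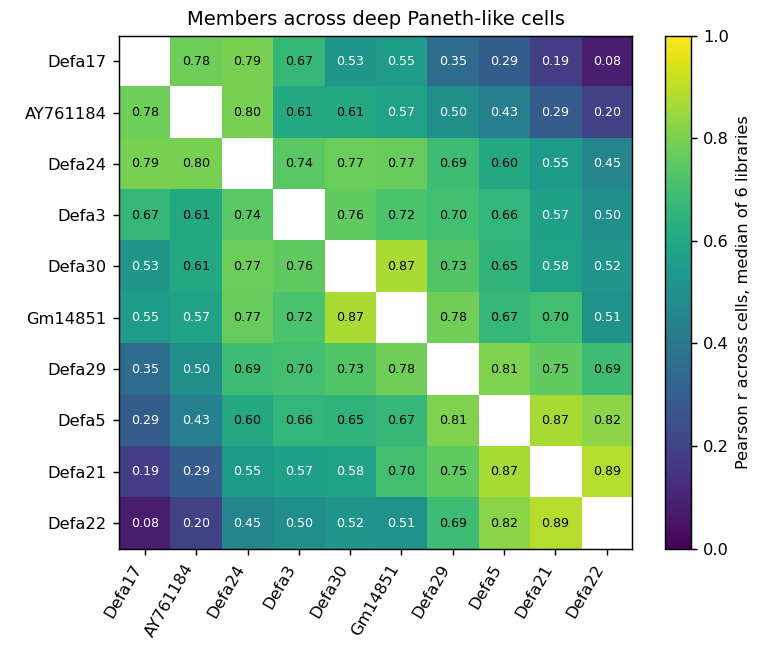
Pearson r between pairs of the 10 genes across deep Paneth-like cells with at least 10000 UMIs (both axes list the genes, color and number give the median over 6 libraries). Values run from 0.08 for Defa17 with Defa22 to 0.89 for Defa21 with Defa22.

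Single Paneth-like cells differed widely in Defa21 and Defa22. Their joint share of the alpha-defensin UMIs of a cell had a median of 6.64% over the 521 cells, with a 5th to 95th percentile range of 0.159% to 31.9%. In 132 cells it was under 2% and in 202 cells over 10%. Library medians were 4.84%, 8.06% and 13.1% in the Fpr2f/f libraries, against 9.91%, 1.92% and 10.6% in Fpr2VKO replicates 1 to 3. In Fpr2VKO replicate 2, 52.3% of 151 cells were under 2%, against 6.19% to 28.6% in the other libraries, and cells over 10% were present in all 6.

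**Figure D4:**
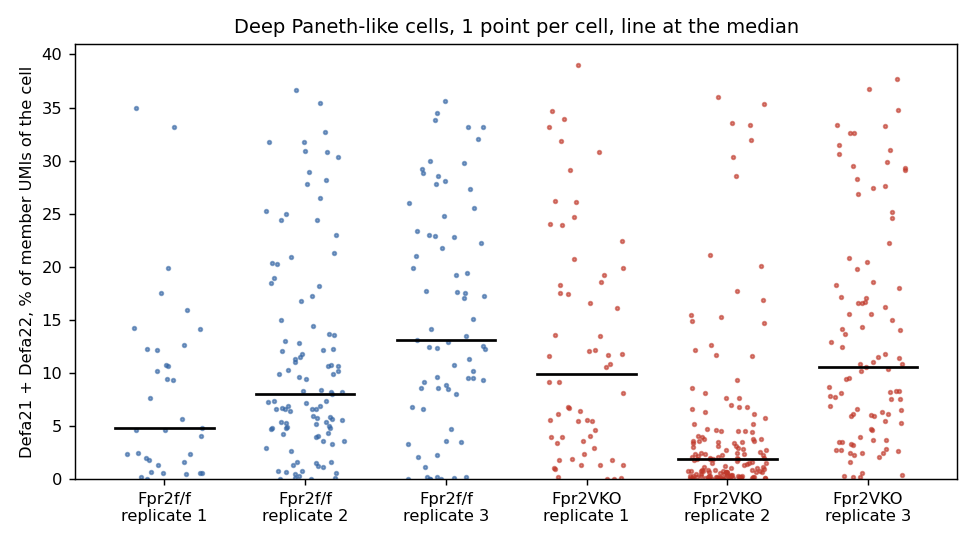
Joint share of Defa21 and Defa22 in the alpha-defensin UMIs of single deep Paneth-like cells with at least 10000 UMIs (y axis, %), by library (x axis), 1 point per cell with a line at the median. Medians range from 1.92% in Fpr2VKO replicate 2 to 13.1% in Fpr2f/f replicate 3, and cells near 0 and above 30% occur in every library.

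Promoter sequence from RefSeq (GRCm38.p6) was at hand for 4 of the 10 genes, which include both pairs that were closest together in single cells (Defa21 with Defa22 and Defa30 with Gm14851). Each stretch of 150 bases ends at the shared ctccac just before the transcript start, or within 43 bases before the RefSeq start. Capitals mark ATCAAAG, the letters bound by TCF factors of the Wnt pathway, searched on both strands, and TATAAA, the TATA box letters, searched on the strand of the gene. The stretches are chr8:21025395-21025544 (Defa21, plus strand), chr8:21134470-21134619 (Defa30, plus strand) and chr8:21096094-21096243 (Gm14851, named Defa38 in RefSeq, minus strand).
Defa21: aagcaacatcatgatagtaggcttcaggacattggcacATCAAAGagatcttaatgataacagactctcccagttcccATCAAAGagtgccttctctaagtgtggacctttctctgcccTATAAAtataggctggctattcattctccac
Defa30: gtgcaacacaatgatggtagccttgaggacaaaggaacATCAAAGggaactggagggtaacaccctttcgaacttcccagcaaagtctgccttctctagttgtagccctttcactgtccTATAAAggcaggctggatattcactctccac
Gm14851: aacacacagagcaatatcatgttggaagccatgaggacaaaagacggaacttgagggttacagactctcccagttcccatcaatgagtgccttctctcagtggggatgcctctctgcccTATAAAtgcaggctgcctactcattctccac

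The stretch of Defa22, at chr8:21162127-21162276, was identical to that of Defa21, as were their full 300-base windows. Defa21 and Defa22 held 2 ATCAAAG each, Defa30 1 and Gm14851 0, and all held 1 TATAAA. Over 32851 RefSeq promoters, 1.80% held ATCAAAG in the 150 bases before the start and 0.0487% held it at least 2 times. TATAAA was held by 4.84% on the strand of the gene. The stretches of Defa30 and Gm14851 end 30 and 43 bases before the RefSeq start, so their windows are unlike those of this background. Defa30 and Gm14851, which had an r of 0.87 across cells, were 66.9% identical in this stretch, less than either was to Defa21 (76.0% and 74.2%). A match of letters is a description and not a binding site.

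The genes most like the summed 10 across 54 pools of cell class and library, by Pearson r of log2(CPM + 1) as a description, were Lyz1 (0.99), the alpha-defensin Defa26 (0.99), the intelectin Itln1 (0.98), the angiogenin Ang4 (0.97) and the colipase Clps (0.97). The pools share libraries, and Lyz1, Itln1, Ang4 and Clps were among the markers that named the Paneth-like cells.

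The comparison of Fpr2VKO with Fpr2f/f asked whether loss of epithelial Fpr2 changed these transcripts, and used UMIs summed per library. In Paneth-like cells no member passed the test, while Defa5 had the lowest p and a lower level in all 3 Fpr2VKO libraries. The edgeR quasi-likelihood test with Benjamini-Hochberg adjustment called 11 of 9027 genes at an adjusted p under 0.05, which is 0.122% of those tested, 4 higher and 7 lower in Fpr2VKO. Of the 10 alpha-defensins, all tested, 0 were called by edgeR and 0 by DESeq2, and at an unadjusted p under 0.05 edgeR gave 1 member among 706 genes. Their median log2 fold change was 0.04, against -0.00 over all genes tested.

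Defa24 had a log2 fold change of -0.01 (SE 0.32, 95% interval -0.63 to 0.61), AY761184 of 0.11 (SE 0.30), Gm14851 of 0.17 (SE 0.30) and Defa30 of 0.10 (SE 0.29). Intervals of this width do not show that levels were equal. Defa21 was at -0.31 (SE 0.28) and Defa22 at -0.42 (SE 0.30), with the lowest value of both in Fpr2VKO replicate 2. Defa17 was at 0.11 (SE 0.26), Defa3 at 0.10 (SE 0.20) and Defa29 at -0.08 (SE 0.25).

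Defa5 averaged 3663 ± 583 CPM in Fpr2f/f and 2090 ± 353 CPM in Fpr2VKO libraries (SD, n = 3 each). Its log2 fold change was -0.84 (SE 0.20, 95% interval -1.23 to -0.45), with an unadjusted p of 0.000139 and an edgeR adjusted p of 0.0638, against the 0.122% of all genes called. It was negative under 17 of 17 alternative settings and called under 5 of them. The edgeR adjusted p ran from 4.13e-05 without a filter on low counts to 0.939 with a mitochondrial limit of 40%. Leaving out Fpr2f/f replicate 1 gave -1.02 (edgeR adjusted p = 0.00732) and leaving out Fpr2f/f replicate 2 gave -0.53 (edgeR adjusted p = 0.362).

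Because most Defa5 windows are shared, its relatives were read beside it. Defa34 had 2433, 2742 and 3144 CPM in Fpr2f/f and 1594, 873 and 1230 CPM in Fpr2VKO libraries, and was called lower (log2 fold change -1.19, SE 0.19, edgeR adjusted p = 0.000604). Only 24.1% of its windows were unique, with 0% in the last 300 bases, and Defa5 is among the genes it shares them with, so its value is also uncertain as that of a single gene and is not separate from that of Defa5. This call was lost under 3 of 17 alternatives, with a mitochondrial limit of 40% (edgeR adjusted p = 0.222) or 10% (0.0525) and with Paneth-like cells taken by marker share (0.0696). For Gm15293 81.8% of windows were unique, and 93.8% in the last 300 bases, where Defa5 had 0.474%. Gm15293, with 264, 266 and 406 CPM against 204, 137 and 172 CPM, was also called lower (-0.87, SE 0.15, edgeR adjusted p = 0.00318), and was called under 11 of 17 alternatives. Its edgeR adjusted p was 0.0520 when Fpr2f/f replicate 2 was left out, 0.0552 when replicate 3 of that group was, 0.120 without alignment of libraries, 0.232 by marker share, and 0.267 or 0.752 with a mitochondrial limit of 10% or 40%. Defa35 overlapped between groups (-0.38, SE 0.22, edgeR adjusted p = 0.754).

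Defa5 and these 5 relatives together took 1.04%, 1.15% and 1.28% of all alpha-defensin UMIs of Paneth-like cells in the Fpr2f/f libraries, against 0.812%, 0.456% and 0.656% in Fpr2VKO, without overlap. In free RNA, which holds other barcodes of the same libraries, Defa5 took 0.375%, 0.464% and 0.439% of the UMIs of the 10 genes in the Fpr2f/f libraries, against 0.284%, 0.215% and 0.226% in Fpr2VKO, also without overlap. On CPM the free RNA groups did overlap for Defa5 (17.8, 158 and 93.3 CPM in Fpr2f/f against 25.5, 71.9 and 44.6 CPM; log2 fold change -0.81, SE 0.94, edgeR adjusted p = 0.735). In other epithelial cells the share of Defa5 with its 5 relatives overlapped too, at 1.20%, 0.895% and 0.498% in Fpr2f/f libraries and 0.742%, 0.416% and 0.518% in those of Fpr2VKO. On CPM, Defa5 (6.61, 19.3 and 6.12 against 2.77, 5.12 and 5.63 CPM; edgeR adjusted p = 0.609), Defa34 (14.1, 14.7 and 13.6 against 6.50, 9.53 and 5.46 CPM; edgeR adjusted p = 0.168) and Gm15293 (edgeR adjusted p = 0.591) did not overlap between groups in other epithelial cells, and none of them was among the 0.0184% of genes called there. Of the other 18 alpha-defensin genes, all 18 were tested in Paneth-like cells, 2 were called (Defa34 and Gm15293, both lower) against 0.122% of all genes, 1 had a positive log2 fold change and the median was -0.53. Goblet markers, with which the Defa5 share differed between single cells, summed to 15124 to 21011 CPM in the Paneth-like cells of the 6 libraries, and their part in the Defa5 values was not tested.

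**Figure D5:**
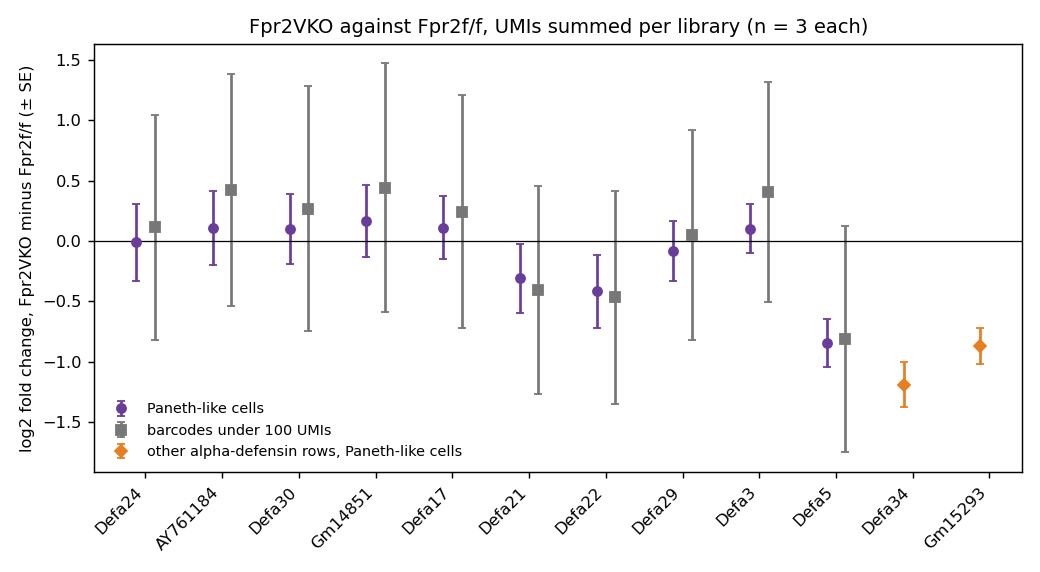
Log2 fold change, Fpr2VKO against Fpr2f/f (y axis, ± SE, n = 3 libraries each, edgeR on summed UMIs), of the 10 genes in Paneth-like cells (circles) and in barcodes under 100 UMIs (squares), and of Defa34 and Gm15293 in Paneth-like cells (diamonds). Defa5 lies at -0.84 in Paneth-like cells, Defa34 at -1.19 and Gm15293 at -0.87, while the other members lie between -0.42 and 0.17.

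Other products of Paneth cells were read against the 0.122% of all genes called. The 13 Paneth effector genes that are no alpha-defensins were mostly enzymes, lectins and other secreted products. All 13 were tested, 1 was called and 8 had positive log2 fold changes, with a median of 0.12. The called gene, Mptx1, rested on few molecules (6, 20 and 13 UMIs in the Fpr2f/f libraries, against 1, 2 and 4 in Fpr2VKO Paneth-like cells; log2 fold change -2.73, SE 0.54, edgeR adjusted p = 0.0156). Lyz1 was at 0.30 (SE 0.26, edgeR adjusted p = 0.848) and Mmp7, the protease that activates cryptdins, at -0.02 (SE 0.18, edgeR adjusted p = 0.993). Of 14 regulators of Paneth cell identity and secretion 13 were tested and 0 called by edgeR, with 2 at an unadjusted p under 0.05 and a median of 0.02. Xbp1, a transcription factor of the secretory apparatus, was at 0.02 (SE 0.14, edgeR adjusted p = 0.987).

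In other epithelial cells 0 of 10 members were called by edgeR or DESeq2 and 0 had an unadjusted p under 0.05, where 3 of 16289 genes (0.0184%) were called and 1425 had an unadjusted p under 0.05. Defa5 was at -1.28 there (SE 0.59, edgeR adjusted p = 0.609). In all epithelial cells, Paneth-like cells included, the 10 genes took 3.76%, 12.7% and 9.86% of UMIs in the Fpr2f/f libraries, against 7.53%, 13.003% and 12.1% in Fpr2VKO. Again 0 members were called by edgeR or DESeq2 and 0 had an unadjusted p under 0.05 in edgeR, where 3 of 16567 genes (0.0181%) were called.

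Over all barcodes of a library the 10 genes took 1.35%, 6.14% and 3.995% of UMIs in the Fpr2f/f libraries, against 2.15%, 5.88% and 4.45% in Fpr2VKO. The 2 replicates numbered 1 were the lowest, and the groups overlapped. In such sums, fewer Paneth cells and less RNA per cell cannot be told apart. Both edgeR and DESeq2 called 0 members, with 0 at an unadjusted p under 0.05 in edgeR, where 18 of 23155 genes (0.0777%) were called.

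In free RNA edgeR and DESeq2 called 0 members, with 0 at an unadjusted p under 0.05, where 3 of 15226 genes (0.0197%) were called and 2208 had an unadjusted p under 0.05 in edgeR. There the replicate numbers of the labels marked libraries that deviated together in all 3 pairs, and with the replicate number as a block edgeR called 714 genes (4.69%). With this block 2 of 10 members were called higher in Fpr2VKO, Gm14851 (log2 fold change 0.61, SE 0.14, edgeR adjusted p = 0.0192) and AY761184 (0.54, SE 0.14, edgeR adjusted p = 0.0391), both cryptdin-related genes. Without the block they were at 0.44 (SE 1.03) and 0.42 (SE 0.96).

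Paneth-like cells made up 2.77%, 4.99% and 5.17% of epithelial cells in the Fpr2f/f libraries, against 4.68%, 7.37% and 9.29% in Fpr2VKO (means 4.31% ± 1.33 and 7.11% ± 2.32, SD, n = 3 each). With the main size limits, the share of the deep cluster was higher in every Fpr2VKO than in every Fpr2f/f library. Deep cells were 42 of 71, 111 of 224 and 88 of 141 Paneth-like cells in the Fpr2f/f group. In the Fpr2VKO group they were 71 of 95, 170 of 196 and 103 of 162. Those limits were stricter for Fpr2VKO replicates 1 (1991) and 3 (1565) than for every other library (1000), which leaves out shallower cells. A single limit of 2000 removed no deep cell. Fpr2f/f replicate 3 then had 88 deep of 135 Paneth-like cells and Fpr2VKO replicate 3 had 103 of 159, so the groups overlapped. The part of the deep share in the group comparisons was not tested. Within the deep cluster alone, Defa5 took 0.498%, 0.628% and 0.579% of the UMIs of the 10 genes in the Fpr2f/f libraries, against 0.403%, 0.254% and 0.325% in Fpr2VKO, without overlap. The difference of 2.80 percentage points in the Paneth-like share of epithelial cells had a two-sided exact permutation p of 0.3, where the smallest p for 3 against 3 is 0.1. The Paneth-like shares follow a mitochondrial limit that removed most barcodes, and with a limit of 10% the difference was 16.2 percentage points (exact permutation p = 0.1), with 40% 1.17 (p = 0.6, exact).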

How the data were processed

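Epithelial cells sorted from ileal crypts were measured in 6 droplet libraries. The authors deposited raw UMI counts per gene and barcode, made with MobiVision on mm10. The annotation version is not given in the sources used here. Seurat (4.0.0 in the submitters' processing notes) and the study's test over single cells come after these files and were not used.

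Barcodes were kept as cells from the steepest point of the UMI rank curve or 1000 UMIs, whichever was higher (at least 500 genes, ratio of log10 genes to log10 UMIs at least 0.7, at most 20% mitochondrial UMIs). The limit was 1000 UMIs in all libraries except Fpr2VKO replicates 1 (1991 UMIs) and 3 (1565 UMIs). Predicted doublets were removed (0.8% per 1000 cells). With 28 alpha-defensin genes left out, 2000 variable genes and 30 principal components, aligned by mutual nearest neighbors, gave 22 Leiden clusters (leidenalg 0.10.2, Python 3.11.15), named by marker genes of 8 classes. Free RNA was not subtracted. A cluster against the rest was described and not tested. UMIs summed per library were compared with edgeR 4.0.16 (R 4.3.3, TMM, filterByExpr, robust quasi-likelihood fit), with an adjusted p under 0.05 called. Fits were tested on simulated data. DESeq2 1.42.0, other scalings, filters and cell selections, and leaving out each library were alternatives. The study gives n = 3 mice per group, so each library was taken as 1 mouse, although the labels do not say so. Same-numbered libraries deviated together in free RNA (r = 0.28, 0.30 and 0.33), a hint from the data and not the design.

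All members were named, with fixed lists of Paneth effectors and regulators (those called, plus Lyz1, Mmp7 and Xbp1) and the 5 non-members with the highest Pearson r with the summed members among genes with at least 20 CPM in Paneth-like cells. Relatives that share sequence with Defa5 were added after values were seen. Members and lists were chosen with earlier results of these data known. Limits from 3 counts cover counting error only.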

Additional observations from a re-analysis of the deposited data

How the results depend on the processing

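In Paneth-like cells no member was called under 12 of 17 alternatives. Under the other 5 the member called was Defa5, 1 in each case against 0: without a filter on low counts (45 genes called against 11), with the replicate block (72 genes), with doublets kept (27 genes), with alpha-defensins left in the clustering (39 genes) and without Fpr2f/f replicate 1 (29 genes). Leaving out each library in turn gave 0 to 1 members called. Over the 9027 genes tested in Paneth-like cells, same-numbered libraries deviated together little (r = 0.01, 0.11 and 0.10). The summed share of the 10 members was nonetheless close in them, at 60.5% and 60.9%, 68.1% and 68.5%, and 63.3% and 62.7%. The block rests on a shared number there. It changed no other member's call in Paneth-like, other epithelial, all epithelial cells or all barcodes. In free RNA the replicate block gave 2 members called and 714 genes. No member was called in other or all epithelial cells under 17 of 17 alternatives each, or over all barcodes under 10 of 10. Counts of all genes called moved more: in Paneth-like cells from 11 to between 1 (mitochondrial limit of 10%, or marker share) and 72; in other epithelial cells from 3 to between 1 and 178 (no filter; DESeq2 118); in all epithelial cells from 3 to between 1 and 147 (no filter; DESeq2 102); in free RNA from 3 to between 2 and 714 (DESeq2 145, no filter 478); and over all barcodes from 18 to between 3 and 127 (both on leaving out a library; DESeq2 115, no filter 77). No call reversed. Members that were not called changed the sign of their log2 fold change in 21 of 170 values for Paneth-like cells. The summed level in Paneth-like cells was 64.0% of UMIs, 58.3% with a mitochondrial limit of 40% and 60.1% with Paneth-like cells taken by marker share. That selection moved the sum in other epithelial cells from 0.307% to 0.152%. The difference in Paneth-like share was 1.71 to 4.02 percentage points on leaving out each library. The causes of these differences were not tested.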
